A study of Mus musculus with 8 samples.

Results

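The miRNAs described here are the late entries of the mouse miRNA catalogue, those named miR-6000 or above, that gave a detected signal in kidney. The array carried 713 such entries among its 1881 mouse miRNAs. Members were selected on the scanner software's detection flags: an entry was taken when it was marked as detected on all 4 arrays of the sham group or on all 4 arrays of the injured group, and miR-6366 was left out. This gave 87 members, of which 70 were detected on all 8 arrays, 17 entered through the injured group only and 0 through the sham group only. Detection is itself a measured value, so which entries are members is a description. The 17 that entered through the injured group were by this rule detected on more arrays there than in sham. That does not require a higher signal there, and their counts support nothing.

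The samples were kidneys of male C57BL/6 mice aged 9 weeks, each hybridised to a single-colour Agilent miRNA array. In the ischemia-reperfusion injury (IRI) group, which models acute kidney injury, surgery took out the right kidney, and blood flow to the left one was clamped off and let back. The clamp lasted 25 or 45 min and the kidney was taken 12 or 24 h later, and the labels do not say which of the 4 IRI samples (replicates 1, 2, 3 and 18) had which. The 4 sham samples (replicates 1, 2, 3 and 6) had a midline incision only, so these mice kept both kidneys, and nephrectomy is part of the contrast along with injury. The labels name no mutation or transgene. They do not name separate animals either, so each p-value reflects the spread among these samples alone, which may be technical.

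A miRNA is a short RNA cut from a hairpin precursor, and the 5p and 3p names mark the side of the hairpin it comes from. Bases near its 5′ end, the seed, do most of the pairing with target mRNAs. Many late catalogue entries are predicted mirtrons, whose hairpin is a short intron that is released by splicing rather than by the Drosha enzyme. Such an intron starts with GU and ends with AG, so a mirtron 5p arm can open with GU and a 3p arm can close with AG.

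Mature sequences were found for 73 of the 87 members in the RefSeq table (build GRCm38.p6), and those that carry the main differences between IRI and sham are printed 5′ to 3′ with the seed, bases 2 to 8, in capitals. The first 6 were called higher in IRI and the last 2 lower.
miR-6931-5p: uGGGGUGGggagugggggacu
miR-7036a-5p: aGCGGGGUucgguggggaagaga
miR-6769b-5p: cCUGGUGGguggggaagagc
miR-7045-5p: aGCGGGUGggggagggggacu
miR-7118-5p: uGGGGAAGgcgggagagggaac
miR-8110: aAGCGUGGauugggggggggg
miR-6368: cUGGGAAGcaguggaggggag
miR-7671-3p: aAGCGGGCaggcggagaaccac
They lie at chr11:102999896-102999916, chr5:137296661-137296683, chr8:71631083-71631102, chr6:125097029-125097049, chr15:89162882-89162903, chr8:89024791-89024811, chr13:28710796-28710816 and chr11:53763597-53763618, in that order. Of these, miR-7045-5p and miR-8110 are on the plus strand and the other 6 on the minus strand. The 6 that rose are built largely of G, and so is miR-6368, which fell. miR-8110 ends in an unbroken run of G. miR-7040-5p had no RefSeq entry.

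The array reads a miRNA with 2 or 3 nested probes that pair with its 3′ end, and the probe letters decide what else can bind. Shared letters between members are in capitals, and each longer probe adds 1 base to the shorter.
miR-6931-5p: AGTCCCCCactccc
miR-7045-5p: AGTCCCCCtcccc
miR-7036a-5p: tCTCTTCCCCACCga
miR-6769b-5p: gCTCTTCCCCACCc
miR-7040-5p: cgcctccatctccc
miR-8110: CCCCCCCCCCa
The longer probes of miR-7036a-5p and miR-6769b-5p share 12 bases in a row. miR-6931-5p and miR-7045-5p share their first 8 bases, and the capitals in miR-8110 mark a run of 10 C. In RNA, 0 of the 73 matched members had a probe that paired in full with another mature sequence of the table. Partial pairing was not tested.

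The 8 arrays shared 1 slide and 1 scan. Sham arrays filled slide row 1 and IRI arrays slide row 2, so slide row and group cannot be told apart. Within a slide column there was 1 sham and 1 IRI array, over 4 columns. Between 327 and 379 miRNAs were detected on sham arrays, fewest on sham replicate 6, and between 393 and 447 on IRI arrays. Every signal below is on a linear scale after dividing by a 75th percentile, taken per array from the 317 miRNAs that all 8 arrays detected. Differing probes have differing affinity, so a brighter member is not known to be a more abundant one. In whole tissue, fewer cells of a type and less RNA per cell cannot be told apart. Of 5 fixed kidney tubule miRNAs, 5 were called lower in IRI (summed signal 17412 to 20068 in sham, 12614 to 14273 in IRI). Of 3 red blood cell miRNAs, 3 were called higher (43.0 to 902 in sham, 2940 to 4087 in IRI), and of 5 leukocyte miRNAs, 1 was called higher (569 to 731 in sham, 764 to 1115 in IRI). The leukocyte list was split. Its log2 changes were 1.53 for miR-223-3p, which was called, 0.29 for miR-142a-3p and 0.19 for miR-142a-5p. Those of miR-150-5p and miR-342-3p were -0.57 and -0.14. The muscle list had 1 of 3 called lower (29.8 to 43.1 in sham, 19.9 to 31.5 in IRI) and 2 undetected. The liver miRNA was not tested (0 to 0.312 in sham, 0 to 33.5 in IRI), and the 3 pancreas miRNAs were undetected on every array, with summed signals of at most 6.02. Over all 379 tested miRNAs, 12.1% were called higher and 36.7% lower. With no scaling between arrays these shares were 14% and 0.264%, so lower calls, those of markers included, depended on the scaling. The part of these marker shifts in the members' differences was not tested.

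The members were dim. Their median signal over all 8 arrays was 47.6, against 87.1 for the other 292 tested miRNAs. Of the 87, 47 had a mean below 50, 69 a mean below 100 and 4 a mean above 500. The brightest, miR-8117, ranked 56 of 379 tested miRNAs. Summed, the members made up 1.23% ± 0.104 of all miRNA signal in sham (SD, n = 4) and 1.93% ± 0.207 in IRI (SD, n = 4). Sham arrays ranged from 1.14% to 1.37% and IRI arrays from 1.66% to 2.16%, so the shares did not overlap. The members' summed scaled signal did: it was 7324 to 8871 in sham and 8386 to 10987 in IRI, with sham replicate 6 above IRI replicate 3. miR-6366, which is in the total and not in the sum, took 32.8% to 33.6% of it in sham and 27.3% to 31.0% in IRI. The sums also hold the 17 members that entered through IRI. On sham arrays 72 to 82 members were detected, and on IRI arrays all 87, which follows from the rule, since 0 members entered through sham only.

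Detection differed by arm. Of 295 late 5p entries on the array, 56 were members (19.0%), and of 293 late 3p entries, 14 were (4.78%). Names without an arm gave 17 of 125 (13.6%). Among entries below 6000, the shares that met the same detection rule were 25.5% for 5p, 22.9% for 3p and 24.9% without an arm. The arms thus differed more among the late entries, where 55 of the 56 5p members had their 3p partner on the array and 50 of these partners were detected on no array. In the reverse case, 10 of the 14 3p members had a 5p partner that was detected on no array.

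Among members detected on all 8 arrays, 10 of 70 were called higher in IRI (14.3%) and 6 lower (8.57%). The shares over all 317 miRNAs detected on all arrays were 9.15% higher and 42.9% lower. A call is a limma adjusted p under 0.05, with Benjamini-Hochberg adjustment over all 379 miRNAs tested. The median log2 change of the 70 was 0.12, against -0.19 over the 317. It was 0.043 without sham replicate 2, 0.039 with quantile normalization and 0.019 when undetected miRNAs entered the percentile as well (-0.23, -0.16 and -0.30 over the 317). The groups did not overlap in 9 members with IRI above and 6 with IRI below, against 8.52% and 42% of the 317. With all 87 members counted, 13 were called higher and 7 lower, where 12.1% and 36.7% of the 379 were called. With slide column as a block, calls among the 70 were 14 higher and 8 lower, against 11% and 38.8% of the 317. Over all 87 the block gave 16 and 8, against 12.9% and 33% of the 379.

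The lower calls depended on the scaling between arrays. With no scaling, 19 of the 70 were called higher and 0 lower by limma (also 0 lower at an unadjusted p under 0.05), and the median of the 70 became 0.42 and that of the 317 became 0.11 (12.3% higher and 0.315% lower of the 317). With the background corrected by normexp, which damps dim signals, 5 were called higher and 10 lower and the median became -0.11, against -0.20 for the 317 (5.05% and 48.3%). Over all 87 members, no scaling gave 22 higher and 0 lower (14% and 0.264% of the 379), and normexp 5 and 10 (4.75% and 42%). Spike-in RNAs added at labelling, used for scaling, gave 25 higher and 0 lower of the 87 (19% and 0.528% of the 379), and 22 and 0 of the 70 (16.7% and 0.631% of the 317). The members' median thus lay above that of the 317 under each of these settings, while its sign turned. Without sham replicate 6, 18 of the 70 were called higher and 4 lower, and 41 of the 317 higher and 126 lower.

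The members' median was also the higher one among miRNAs of like brightness. Among miRNAs detected on all arrays with a mean signal up to 50, the median change was 0.033 in 30 members and -0.21 in 55 others. From 50 to 100 it was 0.25 in 22 members and -0.21 in 57 others, and from 100 to 500 it was 0.27 in 14 members and -0.24 in 63 others. From 500 to 1000 it was -0.14 in 4 members and -0.39 in 21 others. The 61 tested entries numbered from 1000 to below 6000 had a median of 0.13, and the 217 numbered under 1000 a median of -0.29. These medians were described and not tested against each other.

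**Figure D1:**
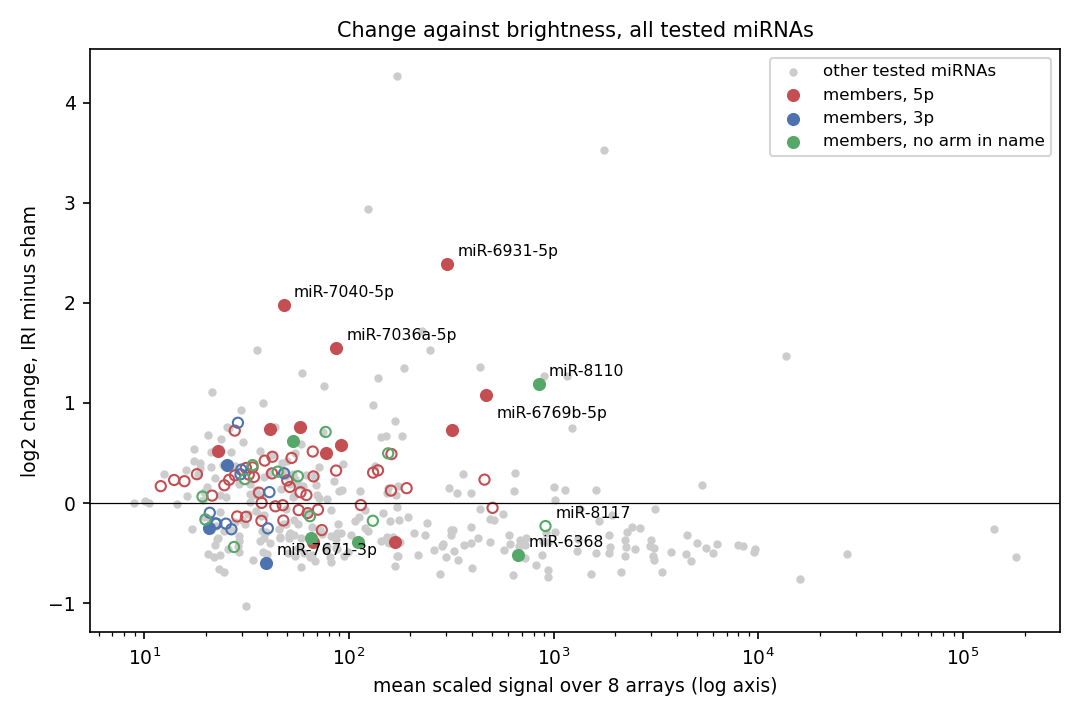
Log2 change between IRI and sham (vertical axis) against mean scaled signal over 8 arrays (horizontal, log axis) for all 379 tested miRNAs. Grey points are other miRNAs; coloured points are the 87 members by arm, filled where the limma adjusted p was under 0.05. Most members lie below a signal of 100, and miR-6931-5p has the largest change among them.

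The members miR-6931-5p, miR-7036a-5p, miR-6769b-5p and miR-7040-5p were named for this work with their change already known, so their values are a description and the adjusted p-values no independent support. The largest log2 change of any member was that of miR-6931-5p. Its sham signals were 97.4, 85.9, 84.3 and 111, and its IRI signals 360.5, 728, 514 and 429.8. Every IRI array lay far above every sham array. The fold was 5.22, a log2 change of 2.38 ± 0.21 (SE, limma adjusted p = 0.000398). It was 1.45 with normexp and 1.596 with no background subtraction, called in both. Its partner miR-6931-3p was not a member.

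miR-7036a-5p gave 34.6, 57.1, 37.2 and 48.9 in sham and 109, 148, 136 and 120.3 in IRI. The groups stood well apart. The fold was 2.93, and the log2 change was 1.55 ± 0.18 (SE, limma adjusted p = 0.000749). With normexp it was 0.46, still called. miR-6769b-5p, the brightest of these, gave 261, 334, 271 and 339 in sham and 588, 716, 621 and 608 in IRI. Its spread within groups was small. The fold was 2.11, and the log2 change was 1.08 ± 0.11 (SE, limma adjusted p = 0.000608).

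miR-7040-5p was detected on 0 of 4 sham arrays and 4 of 4 IRI arrays. Sham signals were 12.1, 10.9, 7.61 and 18.9, of which 3 lay under the floor of 17.3 that was set before taking logs. IRI signals were 171, 73.5, 31.8 and 57.7, widely spread, with replicate 1 highest and replicate 3 lowest. Against the lowest signals well above background on the sham arrays (17.4 to 24.8), IRI was at least 3.41-fold higher, with measured means of 12.4 and 83.6. This member entered through IRI only, so no p is given for it. Its log2 change of 1.97 on the floored scale became 1.04 with the floor raised 2 times and 0.41 with normexp.

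Within slide columns the log2 differences ran from 1.89 to 3.08 for miR-6931-5p, from 1.30 to 1.87 for miR-7036a-5p and from 0.84 to 1.19 for miR-6769b-5p. Their signs follow from groups that do not overlap. With the column as a block, the limma adjusted p-values of these 3 were 0.00486, 0.00415 and 0.00441.

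**Figure D2:**
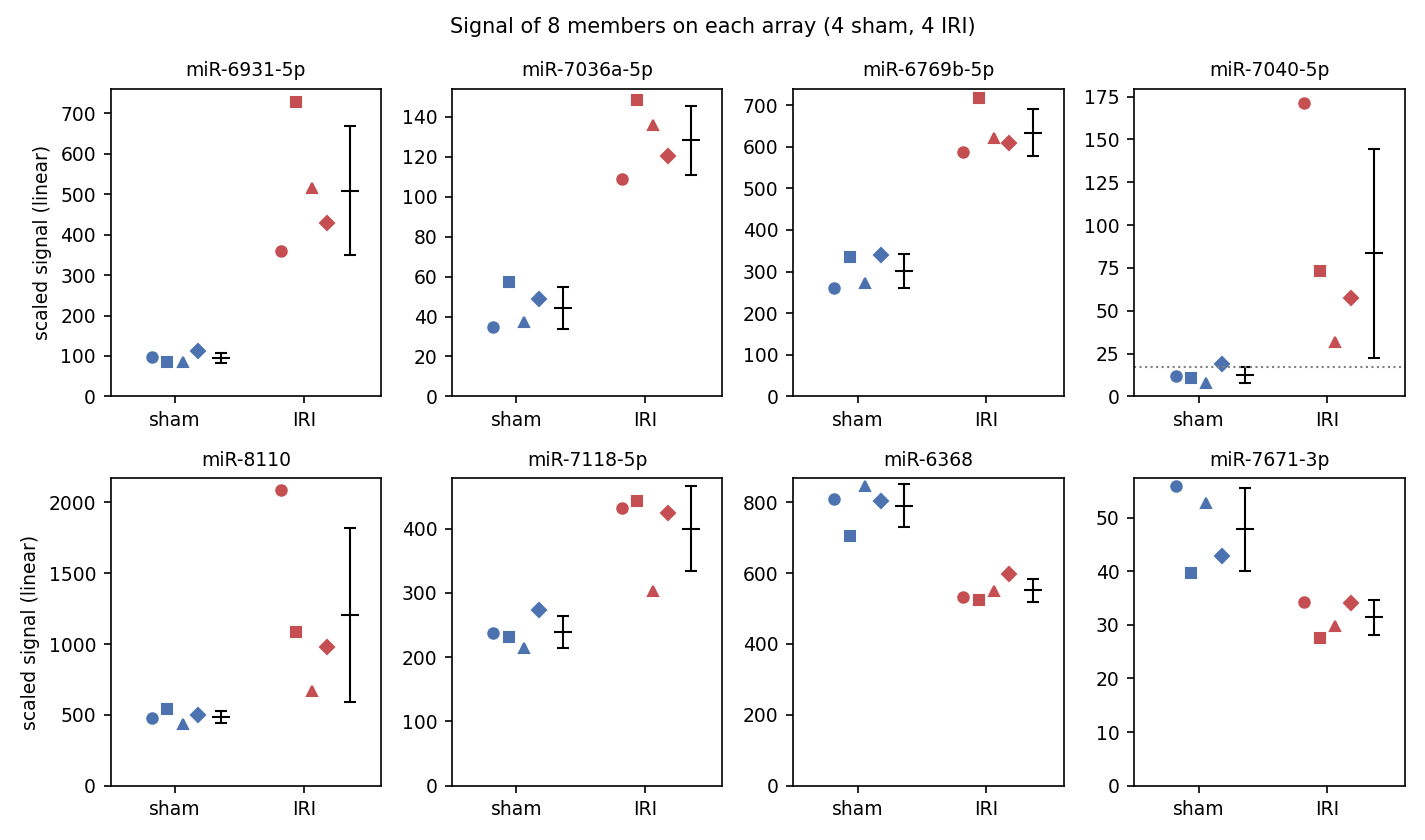
Scaled signal (vertical axis, linear, from 0) of 8 members on each array, sham in blue and IRI in red; symbols mark the 4 replicates of a group, and black marks are the mean with its SD (n = 4). In the first 6 panels every IRI array lies above every sham array, and in miR-6368 and miR-7671-3p every IRI array lies below; the dotted line in the miR-7040-5p panel is the floor of 17.3.

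Besides these, the largest rises among called members detected on all arrays were those of miR-8110, miR-7045-5p and miR-7088-5p. That of miR-8110 was larger than that of miR-6769b-5p. miR-6392-3p, named after its values were seen, had a log2 change of 0.80 but was not called (limma adjusted p = 0.0548), and -0.016 with normexp. miR-8110 gave 478, 539, 433 and 495 in sham and 2087.5, 1084, 667 and 981 in IRI. All 4 IRI arrays were higher, yet the IRI SD was 614 against 44.0 in sham with replicate 1 far above the rest. The log2 change was 1.19 ± 0.31 (SE, limma adjusted p = 0.0143). The call was lost with no filter on detection (limma adjusted p = 0.154), and on the 6 arrays that share replicate numbers, with those numbers as a block (0.0705) and without (0.0504). Its shorter probe is a plain run of 10 C, and what else binds it was not tested.

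miR-7045-5p gave 49.0, 35.1, 39.7 and 46.7 in sham and 73.2, 69.3, 56.0 and 93.3 in IRI, again with no overlap. Its log2 change was 0.76 ± 0.17 (SE, limma adjusted p = 0.00788), and 0.10 with normexp, where it was not called (adjusted p = 0.396). miR-7088-5p gave 30.3, 24.7, 27.6 and 39.4 in sham and 57.1, 48.2, 33.1 and 69.6 in IRI, and the groups overlapped. Its log2 change was 0.74 ± 0.24 (SE, limma adjusted p = 0.0343). The call was lost on leaving out any 1 of 6 arrays, sham 1, 2 or 3 or IRI 1, 2 or 18, where the limma adjusted p lay between 0.0685 and 0.0871. With normexp the change was 0.023 (limma adjusted p = 0.861) and with no background subtraction 0.080 (0.585).

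miR-7118-5p, named after its values were seen, gave 238, 232, 215 and 274 in sham and 432, 443, 302.5 and 424 in IRI. The groups did not overlap, and the log2 change was 0.73 ± 0.14 (SE, limma adjusted p = 0.00392). Along with miR-6931-5p, miR-7036a-5p and miR-6769b-5p, it was called higher under all 30 settings tried. The remaining 3 rises among the 70, also named after their values were seen, were miR-8102 (0.62), miR-6969-5p (0.58) and miR-7048-5p (0.50, each a log2 change). Their limma adjusted p-values were 0.00438, 0.00864 and 0.00867. With normexp the changes were 0.043, 0.13 and 0.064, and 0 of the 3 were called (limma adjusted p = 0.653, 0.178 and 0.543); the calls were lost with no background subtraction too.

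The clearest fall was that of miR-6368, the third brightest member. It gave 809, 704, 846 and 802 in sham and 533, 524, 551 and 596 in IRI. Both groups were tight, with SDs of 60.6 and 32.0, and did not overlap. The log2 change was -0.52 ± 0.077 (SE, limma adjusted p = 0.00133). miR-7671-3p gave 55.9, 39.7, 52.8 and 42.9 in sham and 34.3, 27.5, 29.7 and 34.1 in IRI, a log2 change of -0.60 ± 0.13 (SE, limma adjusted p = 0.00774). Here too the groups did not overlap.

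The other 4 falls were smaller: miR-7050-5p (-0.39), miR-6997-5p (-0.39), miR-6412 (-0.39) and miR-6402 (-0.35). Their limma adjusted p-values were 0.0421, 0.013, 0.0113 and 0.011. With no scaling, all 6 falls kept their sign, at -0.30 to -0.046, and 0 were called. The call of miR-7050-5p was lost on leaving out any 1 of 6 arrays, sham 1, 3 or 6 or IRI 1, 2 or 3 (limma adjusted p = 0.0748 to 0.111), and that of miR-6997-5p without sham replicate 6 (0.0502).

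Of the 6 brightest members, miR-8110 and miR-6769b-5p rose and miR-6368 fell, as given above. miR-8117 gave 829, 973, 960.3 and 1188 in sham and 844, 718, 843 and 951 in IRI. Its log2 change of -0.23 ± 0.13 was not called (limma adjusted p = 0.168) and was 0.073 with no scaling. miR-7042-5p, at 414 to 643 in sham and 414 to 586 in IRI, had a log2 change of -0.048 ± 0.15 (0.25 with no scaling), and miR-7047-5p, at 375 to 509 and 374 to 719.7, one of 0.23 ± 0.21. The groups overlapped for both members.

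Arrays within a group did not rank alike. In sham, 47 of the 87 members were highest on replicate 6 and 2 on replicate 2. In IRI, 37 were highest on replicate 18, 24 on replicate 1, 21 on replicate 2 and 5 on replicate 3. Among the other 292 tested miRNAs, 85 were highest on sham replicate 6 and 168 on IRI replicate 1. miR-6538 shows how a single array can enlarge a difference. It gave 53.7, 54.4, 57.4 and 52.5 in sham and 186, 86.8, 56.0 and 70 in IRI. IRI replicate 1 lay far above the rest, and only IRI replicate 3 lay within the sham range. Named after its values were seen, miR-6538 had a log2 change of 0.71 ± 0.33 and was not called (limma adjusted p = 0.115).

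The 17 members that entered through IRI only were dim, with a median signal of 26.0. The lowest signal well above background was 12.7 to 16.3 on IRI arrays and 17.4 to 24.8 on sham arrays. Entry thus did not need a higher signal in IRI. miR-7117-3p, named after its values were seen and detected on 2 sham arrays, was lower on every IRI array than on any sham array. It gave 20.7, 22.0, 24.4 and 23.7 in sham and 19.7, 16.5, 19.0 and 20.1 in IRI. Besides miR-7040-5p, the brightest in IRI were miR-8119, miR-7028-5p, miR-7233-5p, miR-6905-5p, miR-7222-3p, miR-7234-3p, miR-7055-5p, miR-7047-3p and miR-6971-5p. Their log2 changes ran from 0.23 to 0.72, and all but miR-7233-5p turned negative with normexp, at -0.13 to -0.087. Signals of miR-7047-3p, detected on 3 sham arrays, were 23.1, 20.1, 22.1 and 23.3 in sham and 30.0, 31.4, 27.0 and 26.6 in IRI. Just outside the rule stood 12 entries detected on 3 arrays of a group and on 4 of none. The brightest of these were miR-7219-5p, at 16.9 to 26.9 in sham and 16.3 to 37.0 in IRI, miR-7014-5p, at 16.3 to 26.1 and 17.9 to 38.1, and miR-8103, at 20.7 to 27.8 and 16.3 to 21.3. Members just inside and entries just outside thus had signals in the same range.

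By arm, the calls were as follows, where 9.15% of all 317 miRNAs detected on all arrays were called higher and 42.9% lower. Of the 70 members among these, 45 were 5p arms, so 5p arms were the larger part of the list itself. Of these 45, 8 were called higher and 2 lower, with a median log2 change of 0.18. Of 9 3p members, 0 were called higher by limma (1 at an unadjusted p under 0.05) and 1 lower, with a median of -0.20. Of 16 members without an arm in the name, 2 were higher and 3 lower, with a median of -0.034. The other tested miRNAs were counted by arm with those not detected on all arrays included, so the sets differ. Among them, 15 of 129 5p entries were called higher and 69 lower, and 10 of 113 3p entries higher and 52 lower. Both arms lay below 0 there, with medians of -0.30 for 5p and -0.24 for 3p (-0.018 and 0.056 with no scaling). Of any arm, 33 of all 292 others were called higher and 132 lower, and 19 and 130 of the 247 detected on all arrays. With no scaling the medians of 5p and 3p members detected on all arrays were 0.46 and 0.099, and with normexp -0.093 and -0.20. The 3p list held few members, and the difference between arms was not tested over lists.

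**Figure D3:**
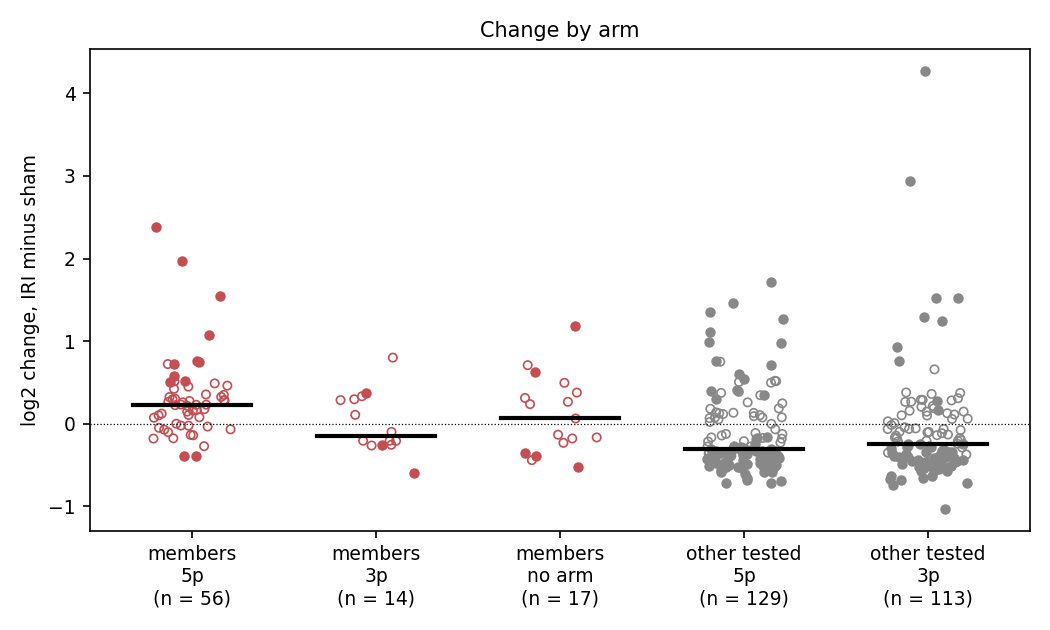
Log2 change between IRI and sham (vertical axis) of each miRNA, by arm; members are red, other tested miRNAs grey, filled points had a limma adjusted p under 0.05 and black bars are medians. The median is 0.23 for the 56 5p members and -0.15 for the 14 3p members, and lies below 0 for both arms of the other miRNAs. With no scaling that of the 3p members and of the other 3p miRNAs turns positive. Members that entered through IRI only are included, and among members detected on all arrays the medians are 0.18 for 5p and -0.20 for 3p.

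The difference between the arms of a precursor on the same array was compared next. Both arms were members for 3 precursors. For miR-7047 the 5p arm exceeded the 3p arm by 4.23 ± 0.16 on the log2 scale in sham and 4.09 ± 0.39 in IRI (SD, n = 4 each). The change was -0.14, within this spread. miR-7047-3p entered through IRI only, so no p is given for this precursor. For miR-7080 the difference was 1.18 ± 0.43 in sham and 1.49 ± 0.36 in IRI (exact permutation test, two-sided, p = 0.286), and for miR-7241 it was -0.24 ± 0.20 and -0.49 ± 0.30 (exact permutation test, p = 0.257). Adjusted over the 3 precursors, these p-values were 0.429 each. The smallest p that 35 splits of 8 arrays allow is 0.0286, and after adjustment a single precursor could not pass the threshold by itself, so these p-values do not show that the arms kept their ratio. With the scanner software's own total signals the change was -1.05 for miR-7047 and -1.08 for miR-7241, and with the deposited ratios -2.09 and -1.19. For miR-7241 the adjusted p was then 0.0429 (exact permutation test), a value that needs the miR-7047 difference in the same family. For miR-7047 the change was 0.31 with normexp, so its direction turned with the processing.

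The nested probes of a member gave similar changes. In all, 178 probes of 9 to 19 bases read the 87 members, 2 probes for 83 members and 3 for 4, on 10 to 15 spots each. Since a longer probe holds the shorter one, they are not independent. Of 26 members whose probes all stood above a probe floor of 17.2 on every array, 23 had probes that changed the same way. The median range between their probes was 0.062 and the largest 0.28 on the log2 scale. The exceptions, miR-6995-5p, miR-7042-5p and miR-7686-5p, had log2 changes of -0.071, -0.048 and -0.021. Of the 20 called members, 9 had every probe above the floor, and in 0 did a probe run against the call. Since a member's signal is the sum of its probes, this follows in part from the sum. For miR-7047-3p and miR-7117-3p all probes lay under the floor on all 8 arrays, so they give no direction.

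For miR-6931-5p the shorter probe changed by 2.45 and the longer by 2.33, for miR-7036a-5p by 1.51 and 1.50, and for miR-6769b-5p by 1.09 and 1.07. Their spots varied by a median of 4.32% to 12.9% (CV over the spots of a probe). The longer probe of miR-7036a-5p lay under the probe floor on 2 sham arrays, at 14.4 and 15.4. Its change of 1.50 is thus partly set by that floor. For miR-7040-5p both probes lay under the probe floor on all 4 sham arrays, so they give no measure of agreement, and the spots varied by 33.5% and 34.5%. Over the 66 probes well above background on all arrays the median CV was 9.5%. In 55 members the longer probe was brighter on all 8 arrays. In miR-6937-5p the gap was wide: its probe of 14 bases gave 2.54 to 11.7, and its probe of 15 bases 151 to 257.

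The probes of the members were short and rich in C. The longest probe had a median of 15 bases and 47.1% C, against 17 bases and 29.0% C for the other tested miRNAs, and 26.7% C for late entries that were not members. In the mature sequences this is G, at a median of 45.5% in members and 27.3% in other tested miRNAs. Among members called higher the median was 55% G, among those called lower 40.9% and among those not called 45.5%. 5p members held 50% G and 3p members 13.6%. The G and C of the longest probe together had medians of 60% in members called higher, 62.5% in those called lower and 64.3% in those not called. In the mature sequences, found for 73 of the 87 members, G and C together had medians of 68.2%, 57.1% and 61.9%, in that order. Probe and mature sequence thus ranked the lists differently. These are medians of lists of unequal size, and the part of probe composition in the changes was not tested.

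Mirtron ends, GU at the start of a 5p arm or AG at the end of a 3p arm, were searched on the mature strand only. GU opened 6 of 47 5p members with a sequence (12.8%), among them miR-7080-5p, and 4.72% of the late 5p entries that were not members. AG closed 4 of 11 3p members (36.4%), 59.6% of the other late 3p entries and 10.02% of 3p entries outside this range. The 4 were miR-6943-3p, miR-6976-3p, miR-7117-3p and miR-7222-3p, and 1 of them is printed with its seed in capitals and its AG as the last 2 letters.
miR-7117-3p: uGUCCUUCucuuucccccag
Seeds were mostly unique, with 71 different seeds in 73 members. CUGGGGA was shared by miR-6975-5p and miR-7005-5p, with log2 changes of -0.18 and 0.49 (0.12 and 0.79 with no scaling), and GAGGGAG by miR-6965-5p and miR-7047-5p, with -0.27 and 0.23 (0.033 and 0.54 with no scaling). Leaving out the scaling moves all miRNAs that lie above the floor up by the same amount, so the gap within each pair stays. As scaled here, 0 of these 4 members were called. With no scaling miR-7005-5p was called higher (limma adjusted p = 0.0339).

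Shared probe letters were uncommon. Of 3741 pairs of members, 7 shared at least 10 bases in a row within their longest probes. miR-7036a-5p and miR-6769b-5p shared CTCTTCCCCACC, and the log2 difference between them had an SD of 0.28 over the 8 arrays, against SDs of 0.87 and 0.60 for each alone. miR-6937-5p and miR-7047-5p shared CAGACCCAGCCC, and their difference had an SD of 0.079, against 0.26 and 0.32 alone. Their longest probes are printed with the shared stretch in capitals.
miR-6937-5p: acaCAGACCCAGCCC
miR-7047-5p: tCAGACCCAGCCCt
On every array miR-6937-5p stood between 1.17 and 1.42 below miR-7047-5p on the log2 scale. Over all pairs of members the median SD of the difference was 0.42 and its 10th percentile 0.19. Sharing did not always go with a common course: miR-6965-5p and miR-7222-3p shared CTCCTGCCCA and had log2 changes of -0.27 and 0.33 (0.033 and 0.64 with no scaling, -0.21 and -0.12 with normexp), with an SD of 0.41. Whether both members of a pair were bound by the same RNA was not tested.

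**Figure D4:**
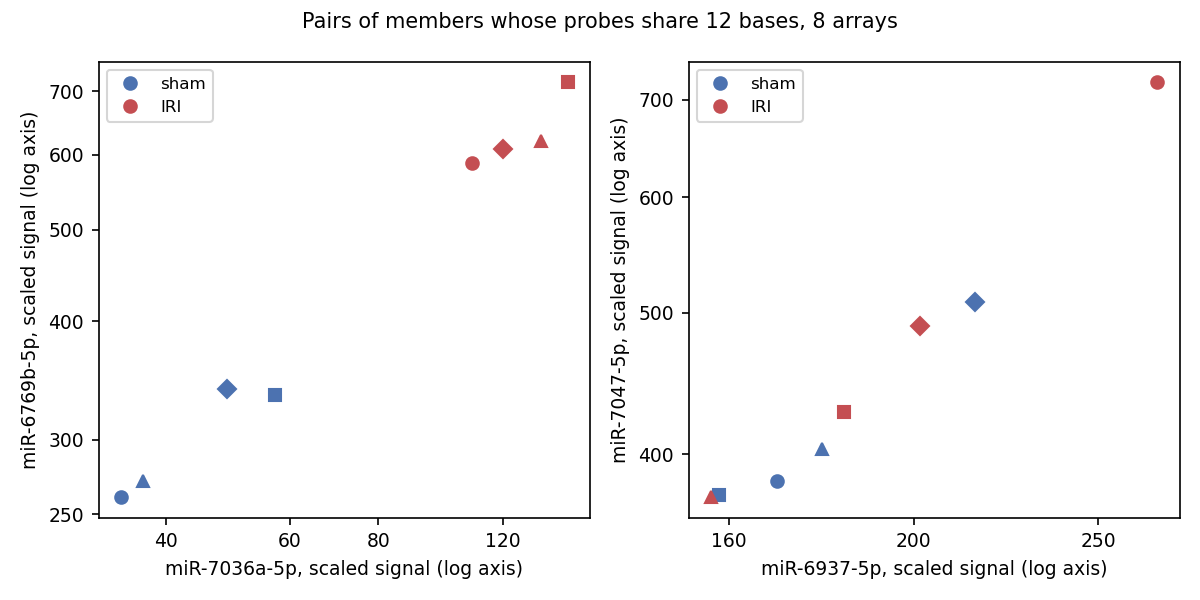
Scaled signals (both axes, log) of 2 pairs of members whose longest probes share 12 bases, 1 point per array, sham in blue and IRI in red, with a symbol for each replicate. miR-7036a-5p and miR-6769b-5p are both highest on the IRI arrays, and miR-6937-5p and miR-7047-5p rank the arrays nearly alike with the groups mixed.

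A set of 12 members moved together from array to array with little regard to group. It was drawn after the values were seen, as members whose log2 difference from miR-7218-5p had an SD below 0.2 over the 8 arrays, so no test is given. The set held miR-7218-5p, miR-8119, miR-7028-5p, miR-6980-5p, miR-7682-3p, miR-6401, miR-6905-5p, miR-7055-5p, miR-6918-5p, miR-7234-3p, miR-6904-5p and miR-6971-5p. Of these, 6 entered through IRI only. miR-7218-5p gave 57.5, 31.9, 53.2 and 35.9 in sham and 43.9, 80.7, 59.5 and 57.7 in IRI, and miR-8119 gave 37.3, 21.9, 35.6 and 23.6 in sham and 29.0, 50.6, 36.5 and 36.5 in IRI. Both were low on sham replicates 2 and 6 and high on IRI replicate 2. The log2 difference between them had an SD of 0.054, while each alone had an SD of 0.43 and 0.39.

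Centred on its own mean, the set had medians of 0.27, -0.56, 0.12 and -0.41 on sham replicates 1, 2, 3 and 6 and of -0.31, 0.63, 0.16 and 0.14 on IRI replicates 1, 2, 3 and 18. Of the 12, 0 were called by limma, also at an unadjusted p under 0.05 (lowest unadjusted p 0.107), and their log2 changes ran from 0.16 to 0.45 (limma adjusted p for miR-7218-5p 0.165). Another 5 tested miRNAs met the same limit, among them miR-504-3p and miR-1927. The longest probes of 4 members, with the letters ACC in capitals, show what the set has in common.
miR-7218-5p: ccctctacactaaACCc
miR-8119: gACCctagctccctc
miR-7682-3p: aaagccaACCcaACC
miR-7055-5p: ccaactcagataACCca
These probes held a median of 29.4% A, against 7.69% in the other 75 members. The letters ACC, picked after the probes were seen and searched on the probe strand only, occurred in 12 of 12, against 21 of 75 other members (28%) and 25.4% of the longest probes of all 1881 mouse miRNAs. Of the 5 other miRNAs that met the limit, 4 held ACC. CTA and AACC, also counted, each occurred in 7 of the 12 and in 4 of the 75 other members. Over all 1881 their shares were 18.1% and 5.95%. A match is a description of the probes. What varied between arrays in this way was not tested.

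**Figure D5:**
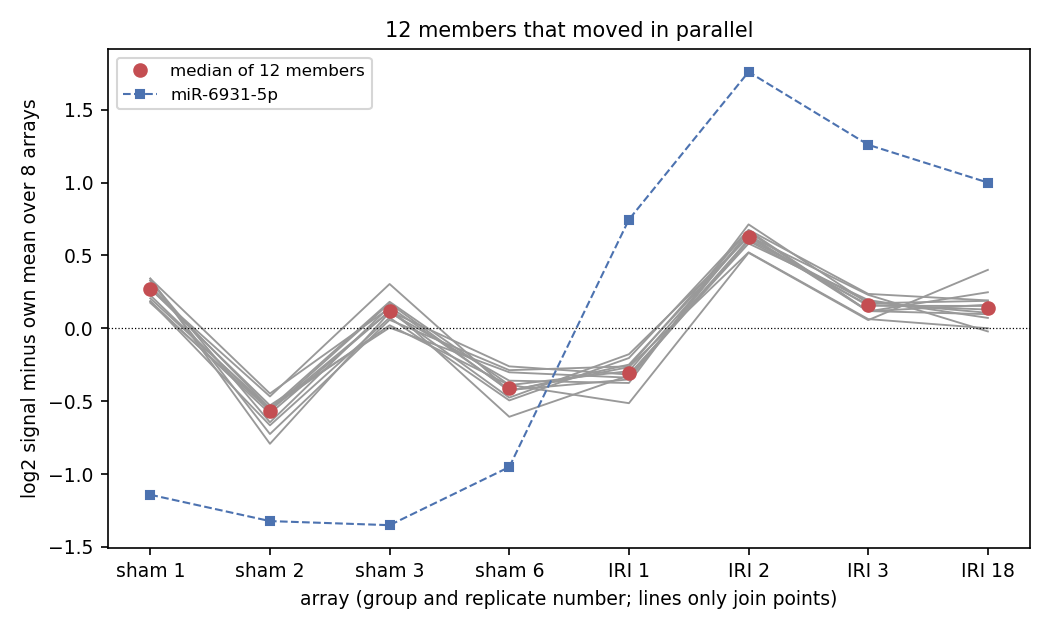
Log2 signal minus each miRNA's own mean over 8 arrays (vertical axis) on each array (horizontal axis) for the 12 members of the set (grey), their median (red) and miR-6931-5p (blue). The grey lines lie close together, and their median is lowest on sham replicate 2 and highest on IRI replicate 2, while miR-6931-5p separates sham from IRI.

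Many members lay inside protein-coding genes. Of the 73 with a gene in the RefSeq tables, 48 lay inside a protein-coding gene on the same strand (65.8%), 3 inside one on the opposite strand only and 8 inside one whose strand the tables used here did not give. Among the other tested miRNAs it was 100 of 244 (41.0%). By arm it was 37 of 47 5p members, 6 of 11 3p members and 5 of 15 without an arm. Whether a site is intronic or exonic was not analysed here.

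The hosts of the called members had varied roles. miR-6931 lies in Dcakd, named for a dephospho-CoA kinase domain, miR-7036a in Srrt, a partner of the nuclear cap-binding complex, and miR-6769b in Unc13a, which primes synaptic vesicles. miR-7045 lies in Chd4, a chromatin remodeller, miR-7118 in Plxnb2, a semaphorin receptor, and miR-7088 in Mst1, which encodes macrophage-stimulating protein. Of the members that fell, miR-6997 lies in Sptan1, an alpha spectrin, miR-7050 in Fxyd5, a regulator of the sodium pump, and miR-6402 in Elavl2, an RNA-binding protein. miR-8110, miR-7671, miR-6368 and miR-6412 lay in no protein-coding gene of the table. The median log2 change was 0.22 for the 48 members inside a gene on the same strand and 0.15 for the other 25, and the difference was not tested. The host mRNAs were not measured on this array.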

How the data were processed

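Total RNA from 30 mg of kidney was labelled with Cy3 (100 ng per array), per the labels' protocols. Intensity per spot, linear, and its flags come from the authors' scanner output (Agilent Feature Extraction, version 12.0.3.1 in the submitters' processing notes). A fitted background was subtracted and arrays were not normalized to each other, per the file headers. The authors' deposited table gives each miRNA 1 linear ratio per sample, where higher means more signal; its scaling and centring are unknown, and the sources used here do not say how it was made. Its column medians were 0.859, 1.23, 1.29 and 1.30 for sham and 0.658, 0.646, 1.16 and 0.749 for IRI, and it served as an alternative only.

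Outlier spots (1422 to 1560 of 56430 per array) were left out, and 0 spots were saturated. Processed signals were averaged per probe, summed per miRNA, scaled to an equal 75th percentile per array (317 miRNAs that all arrays detected), floored at 17.3, the 5th percentile of scaled detected signals, and put on a log2 scale. The limma package (3.58.1, R 4.3.3) was run on the 379 miRNAs detected on all 4 arrays of a group (lmFit, eBayes, two-sided, Benjamini-Hochberg, threshold 0.05), and the fit was tested on simulated data. Folds are those of the log2 means. For miR-7040-5p the fold is a bound: the IRI mean against, per sham array, whichever is higher of its signal there and the lowest well above background. Precision is limited by 4 arrays per group. Arm differences were tested by exact permutation.

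The members, lists and tests were chosen with earlier results of these data known. Named members were 4 given ones, the 6 brightest, the 6 largest rises and falls among calls detected on all arrays, up to 10 that entered through 1 group, both arms of precursors and 3 entries just outside; others are said to be named after their values were seen. Replicate numbers 1, 2 and 3 occur in both groups, but same-numbered samples did not deviate together (r of -0.16, -0.20 and 0.24 over miRNAs; 0.50 for sham 6 and IRI 18, which share slide column 4 and no number), so the fit has no block. Coordinates are those of the RefSeq tables (GRCm38.p6). The array design names build mm9, which was not used here.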

Additional observations from a re-analysis of the deposited data

How the results depend on the processing

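Counts of members called are out of all 87, with 13 higher and 7 lower as reported. The higher count became 22 with no scaling, 25 with scaling to the labelling spike-ins, 5 with normexp, 5 with no background subtraction and 6 with no filter. Over all 379 tested miRNAs, 46 were higher and 139 lower as reported. Their higher count was 53 with no scaling, 72 with the spike-ins, 18 with normexp and 21 with no background subtraction. With no filter it was 15 of the 317 detected on all arrays, against 5 of the 70 members among these. The lower count became 0 with no scaling, 0 with the spike-ins, 11 with quantile normalization, 3 with the scanner software's total gene signal, 4 with the brightest probe, 1 with no filter and 11 with array weights. Over all 379 it was 1 with no scaling, 2 with the spike-ins and 128 with quantile normalization. Over the 317 it was 118 with total gene signals, 123 with the brightest probe, 88 with no filter and 156 with array weights. Over the 70 members these last 4 settings gave 3, 4, 1 and 10. Leaving out 1 array gave 11 to 20 higher and 4 to 9 lower, with 20 and 4 without sham replicate 6. Of the 317 it gave 24 to 42 higher and 112 to 141 lower, and of the 70 members 9 to 18 and 4 to 7. With the replicate block on the 6 arrays that share numbers, 11 were higher and 6 lower, against 14 and 5 on these arrays with no replicate block, which was added after seeing the data; the numbers do not pair the samples. With the replicate block 27 of the 317 were higher and 122 lower, and on the same arrays without it 31 and 120. Of the 70 members, 10 were higher and 6 lower with the block and 12 and 5 without. The median change of all 379 tested miRNAs was -0.11 as reported, 0.17 with no scaling and 0.19 with the spike-ins.

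Signs turned as follows. With no scaling and with the spike-ins, the log2 change of miR-8117 became 0.073 and 0.093, that of miR-7042-5p 0.25 and 0.27, that of miR-7080-3p 0.10 and 0.12 and that of miR-7241-5p 0.17 and 0.19. With normexp and with no background subtraction it became -0.087 and -0.077 for miR-8119, -0.10 and -0.072 for miR-7028-5p, -0.11 and -0.085 for miR-6905-5p, -0.12 and -0.078 for miR-7222-3p, -0.13 and -0.10 for miR-7234-3p, -0.13 and -0.10 for miR-7055-5p, -0.12 and -0.10 for miR-7047-3p, -0.13 and -0.10 for miR-6971-5p, -0.11 and -0.090 for miR-7080-5p and -0.17 and -0.14 for miR-7241-3p. The change of miR-7042-5p was also 0.0013 with the brightest probe and ran from -0.15 to 0.069 without 1 array, above 0 without IRI replicate 2 or sham replicate 6. That of miR-7080-5p was -0.00074 with the percentile taken over all miRNAs and fell below 0 without sham replicate 2 (-0.052) or IRI replicate 2. That of miR-7241-3p was -0.055 with array weights. The arm difference of miR-7047 became 0.31 with normexp, 0.30 with no background subtraction and 0.23 with the higher floor. It was -1.05 with total gene signals and -2.09 with the deposited ratios. There that of miR-7241 was -1.08 and -1.19, with adjusted p-values of 0.0429 by exact permutation. Those values need the miR-7047 difference in the same family, and miR-7047-3p entered through IRI only. Without 1 array, the arm differences ran from -0.31 to -0.04 for miR-7047, 0.15 to 0.50 for miR-7080 and -0.34 to -0.13 for miR-7241. The cause was not tested. Of 29 named members, 4 kept their sign and their side of the threshold under every alternative tried (miR-6931-5p, miR-7036a-5p, miR-6769b-5p and miR-7047-5p, the last never called), and 14 changed sign under at least 1. Most members lie within a few times the floor, so their signal over background limits what a change can show.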
